A study of Mus musculus with 16 samples.

Results

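The hemoglobin genes of the dentate gyrus tables were described here as the 5 gene names Hba-a1, Hba-a2, Hbb-bs, Hbb-b1 and Hbb-bt, out of 24421 gene names. They were chosen by name, after it had been seen in these same libraries that their signal moved from one entry to another, so every value of the 5 names and of their sums below is a description without a test. All 5 were present in all 16 libraries and all 5 passed the filter of a mean of 0.1 TPM (a transcript level per length of the gene, relative to a fixed total per library) that was set for testing.

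Adult hemoglobin is a tetramer of alpha and beta chains, each carrying a heme group. In the mouse the adult alpha chains are encoded by a pair of genes, Hba-a1 and Hba-a2, on chromosome 11, and the adult beta chains by a pair of genes on chromosome 7, called Hbb-bs and Hbb-bt in strains with the single haplotype such as C57BL/6, and Hbb-b1 and Hbb-b2 in strains with the diffuse haplotype. The transcripts are made in erythroid precursors and persist in young red cells, so RNA of tissue that holds blood carries them, and low hemoglobin expression is also known in some neurons and glial cells.

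RNA was taken from the dissected bilateral dentate gyrus of 1-year-old male mice of the C57BL/6 strain, either p16Ink4a +/+ (p16 WT) or lacking p16Ink4a (p16 KO). The mice were either sedentary (CTL) or had run on a wheel for 12 days (RUN). The 4 groups were named p16 WT CTL, p16 WT RUN, p16 KO CTL and p16 KO RUN. Each had 4 libraries, numbered 1 to 16 without a number shared between groups, and each library held 2 pooled mice. Since mice were pooled, the spread between animals was not measured, and any p-value covers the spread between libraries. The knockout was a germline one, made in FVB mice and bred into C57BL/6, and the mice for RNA were killed by decapitation, with no perfusion mentioned for them in the methods.

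The tables give no read counts, so the counting error of single values is unknown, while the mean coverage of the libraries relative to each other ran from 0.621 in p16 WT RUN replicate 10 to 1.95 in p16 WT CTL replicate 2. Cdkn2a, the gene that encodes p16Ink4a, stayed at or under 0.586 TPM in every library of all 4 groups, so its level did not tell the genotypes apart. That level is for the whole gene name and not for the p16Ink4a transcript alone, and the paper states that p19Arf stays functional in this strain. Markers of dentate granule neurons such as Prox1, C1ql2 and Calb1 were present in every library. The comparisons are called as in the study, where Set A sets p16 KO RUN against p16 KO CTL, Set B sets p16 KO CTL against p16 WT CTL, Set C sets p16 WT RUN against p16 WT CTL, Set D sets p16 KO RUN against p16 WT CTL and Set E sets p16 KO RUN against p16 WT RUN. The sets share control groups, so their values are given side by side.

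The sequences show how alike the genes are from which reads have to be assigned. In the GENCODE annotation of mouse build GRCm38 (mm10), the coding sequences of Hba-a1 and Hba-a2 are both 429 bases long and differ at 1 base, C381T, counted from 1 at the A of the start codon, with the Hba-a1 base first. Those of Hbb-bs and Hbb-bt are both 444 bases long and also differ at 1 base, C417T, with the Hbb-bs base first. The stretches printed here were chosen because they hold the only coding base that tells the genes of a pair apart. They give the stretch around the difference in each gene, with the differing base in capitals, at chr11:32284313-32284373 for Hba-a1 and chr11:32297130-32297190 for Hba-a2 (plus strand), and at chr7:103826665-103826722 for Hbb-bs and chr7:103812656-103812713 for Hbb-bt (minus strand).
Hba-a1 window: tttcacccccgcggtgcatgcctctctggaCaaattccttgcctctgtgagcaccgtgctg
Hba-a2 window: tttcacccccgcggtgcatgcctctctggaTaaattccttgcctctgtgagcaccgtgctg
Hbb-bs window: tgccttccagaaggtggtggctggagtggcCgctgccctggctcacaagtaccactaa
Hbb-bt window: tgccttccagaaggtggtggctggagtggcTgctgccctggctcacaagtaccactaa

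The longest identical run was 380 bases between the coding sequences of the alpha pair and 416 bases between those of the beta pair. Over whole transcripts, untranslated parts included, the longest shared run was 415 bases for Hba-a1 and Hba-a2 and 430 bases for Hbb-bs and Hbb-bt. Between Hba-a1 and Hbb-bs it was 14 bases. A read of 150 bases can therefore lie wholly within sequence shared by a pair, but not within sequence shared by an alpha and a beta gene.

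The positions of the entries, the same in all 16 libraries, added a second kind of overlap. The Hba-a1 entry ran from 32283672 to 32297303 and the Hba-a2 entry from 32283675 to 32297310 on the plus strand of chromosome 11, so each entry spanned both alpha genes and lay almost wholly over the other. Hbb-bs ran from 103826523 to 103827928 and Hbb-b1 from 103826532 to 103827929 on the minus strand of chromosome 7, so these are different names for nearly the same stretch, called the beta-s position below. Hbb-bt ran from 103812524 to 103813923, and Hbb-b2, which is not among the 5 names, had exactly the same start and end, called the beta-t position below. The ratio of FPKM to coverage was 2.00 times as high for the alpha entries as for the single-copy globin entries. In this way a sum was formed for the alpha locus (Hba-a1 and Hba-a2), for the beta-s position (Hbb-bs and Hbb-b1), for the beta-t position (Hbb-bt and Hbb-b2), for the beta locus (all 4 beta entries) and for hemoglobin as a whole (all 6 entries).

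At the alpha locus, Hba-a2 carried most of the signal in 15 of 16 libraries, and Hba-a1 carried it in the remaining one. Hba-a2 read 714, 240.4, 321 and 227 TPM in p16 WT CTL replicates 1 to 4, and 501, 314, 266 and 494 TPM in p16 KO CTL replicates 5 to 8. It read 410.0, 1.01, 298 and 448 TPM in p16 WT RUN replicates 9 to 12, and 513, 409, 414 and 237 TPM in p16 KO RUN replicates 13 to 16. The low value of 1.01 TPM, in p16 WT RUN replicate 10, stood alone, and apart from it the 4 groups overlapped.

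Hba-a1 was far higher in that library than in any other. It read 22.2, 5.74, 7.67 and 5.93 TPM in p16 WT CTL, and 9.80, 55.9, 2.82 and 0.928 TPM in p16 KO CTL. It read 5.00, 454, 3.72 and 17.4 TPM in p16 WT RUN, and 23.4, 6.61, 17.7 and 5.79 TPM in p16 KO RUN. The value of 454 TPM came from the same p16 WT RUN replicate 10, where Hba-a1 held 99.8% of the alpha sum, against 15.1% in p16 KO CTL replicate 6 and between 0.187% and 4.37% in the other 14 libraries.

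The alpha sum did not show this exchange. It was 736, 246, 328 and 233 TPM in p16 WT CTL, and 511, 370.2, 269 and 495 TPM in p16 KO CTL. It was 415, 455, 302 and 466 TPM in p16 WT RUN, and 537, 416, 432 and 243 TPM in p16 KO RUN. With 455 TPM, p16 WT RUN replicate 10 lay within the range of its own group. The coefficient of variation over the 16 libraries was 276% for Hba-a1 and 44.7% for Hba-a2, and 33.3% for their sum.

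At the beta-s position the exchange between names was the widest. Hbb-bs, the name of the C57BL/6 gene, read 438, 154, 199.8 and 167 TPM in p16 WT CTL, and 4.40, 215, 162 and 8.07 TPM in p16 KO CTL. It read 20.5, 0.0165, 194 and 252 TPM in p16 WT RUN, and 4.45, 265, 18.5 and 2.99 TPM in p16 KO RUN. All 4 p16 WT CTL libraries were high, while each of the other groups held both high and low libraries.

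Hbb-b1, the diffuse-haplotype name of the same position, was high where Hbb-bs was low. It read 0.387, 0.170, 0.508 and 0.362 TPM in p16 WT CTL, and 297, 0.342, 0.258 and 319 TPM in p16 KO CTL. It read 235, 289, 0.520 and 11.5 TPM in p16 WT RUN, and 294, 0.661, 227 and 129 TPM in p16 KO RUN. No library was in between, since Hbb-b1 held 92.0% to 99.99% of the beta-s sum in 7 libraries and 0.0881% to 4.38% in the other 9. The 7 libraries were 3 of 4 in p16 KO RUN, 2 of 4 in p16 WT RUN, 2 of 4 in p16 KO CTL and 0 of 4 in p16 WT CTL, so both genotypes and both running states had libraries of this kind.

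The beta-s sum varied less than either name. It ran from 154 to 439 TPM in p16 WT CTL and from 163 to 327 TPM in p16 KO CTL. It ran from 195 to 289 TPM in p16 WT RUN and from 132 to 298 TPM in p16 KO RUN, so all 4 groups overlapped. The coefficient of variation was 98.3% for Hbb-bs and 121% for Hbb-b1, and 32.1% for the beta-s sum. Over the 16 libraries the log2 levels of Hbb-bs and Hbb-b1 had a Pearson r of -0.838 and a Spearman rho of -0.624, which describes 2 entries over nearly the same stretch.

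At the beta-t position yet another pattern was seen. Hbb-bt read 5.78, 2.76, 3.01 and 28.0 TPM in p16 WT CTL, and 48.4, 2.75, 2.37 and 4.46 TPM in p16 KO CTL. It read 39.7, 4.08, 1.58 and 5.06 TPM in p16 WT RUN, and 1.97, 3.50, 36.3 and 22.0 TPM in p16 KO RUN. Its partner Hbb-b2 ran from 31.2 to 167 TPM. Hbb-bt held 40.8% to 45.0% of the beta-t sum in 5 libraries and 1.71% to 4.86% in the other 11, and the 5 libraries were 2 in p16 KO RUN and 1 in each of the other groups. The coefficient of variation was 121% for Hbb-bt and 44.0% for Hbb-b2, and 32.4% for the beta-t sum.

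The exchanges at the 3 positions did not go together in every library. Of the 7 libraries in which Hbb-b1 took the beta-s signal, 4 also had the high share of Hbb-bt at the beta-t position and 3 did not. Of the 9 libraries in which Hbb-bs kept the signal, 1 had the high share of Hbb-bt, and the single library in which Hba-a1 took the alpha signal was one of the 3 with a low share.

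**Figure D1:**
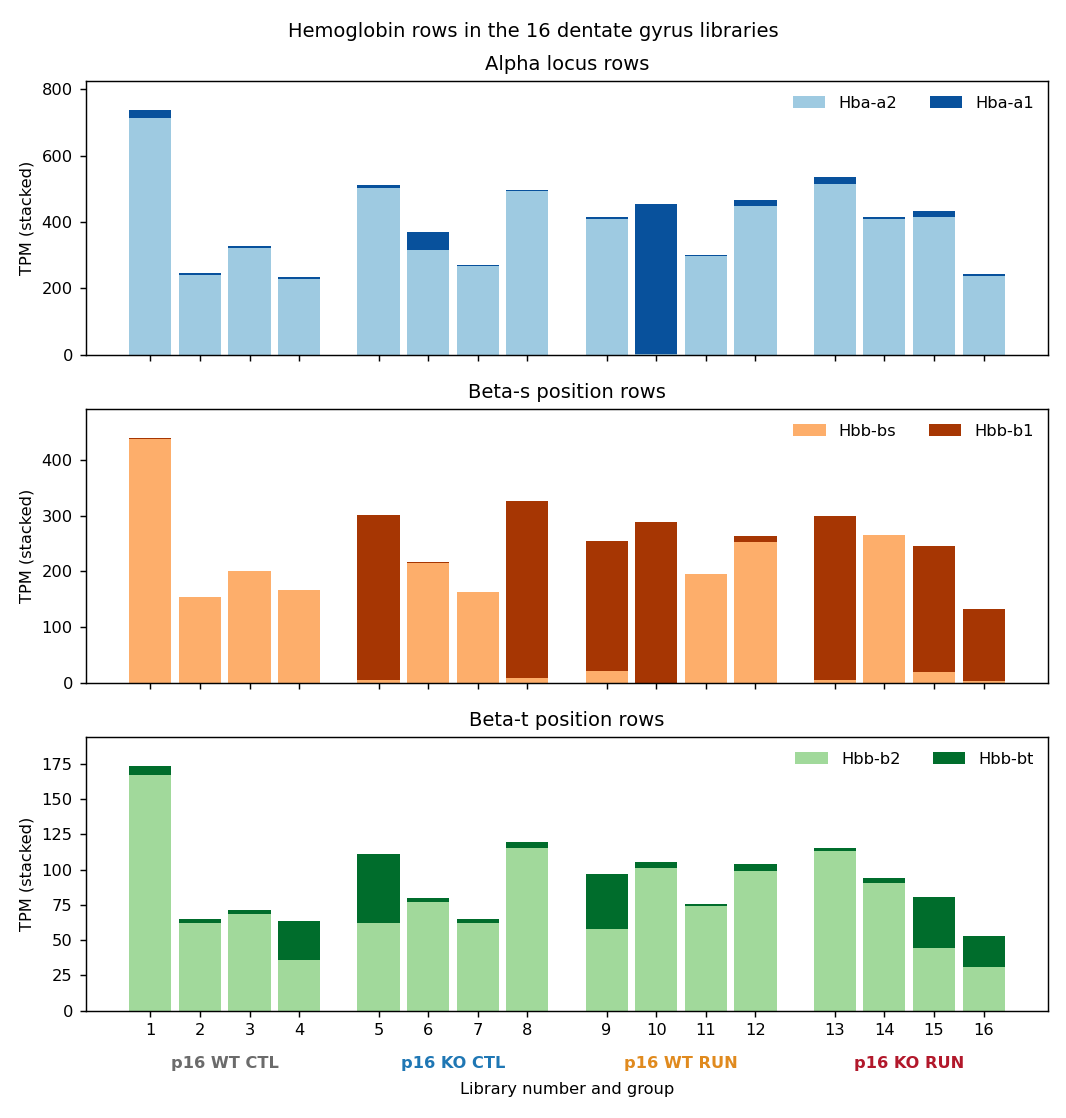
TPM of the 6 hemoglobin entries in each of the 16 libraries, stacked by position, with the library number and group on the horizontal axis. The height of the bars varied alike at all 3 positions, while the split by color changed from library to library, with Hbb-b1 taking over the beta-s position in 7 libraries and Hba-a1 the alpha locus in 1.

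Across the tables as a whole, overlapping pairs of entries were counted for such exchanges. Of 622 pairs of entries on the same strand that overlapped by at least 90% of both, 61 had a summed level of at least 10 TPM in every library, and 4 of those 61 switched, with one partner at 10% or less of the sum in some library and at 90% or more in another. The 4 were Hba-a1 with Hba-a2, Hbb-bs with Hbb-b1, Rps27rt with Rps27, and Tmem254a with Tmem254c. The hemoglobin pairs among these 4 were chosen because their signal moved. Many of the 61 were pairs of clustered protocadherin genes, and likeness of sequence was not examined for pairs outside hemoglobin. The share of pairs that switched is therefore not read as a rate.

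On the level of sums, hemoglobin made up 0.0428% to 0.135% of all TPM. Its 16-library mean of 740 ± 241 TPM (SD, n = 16) would place it 167th among all gene names, while as single entries Hba-a2 stood 464th, Hbb-bs 1602nd, Hbb-b1 1921st, Hba-a1 5135th and Hbb-bt 9342nd. The order of the mean levels was Hba-a2 (363 ± 162 TPM), Hbb-bs (132 ± 129 TPM), Hbb-b1 (113 ± 137 TPM), Hba-a1 (40.3 ± 111 TPM) and Hbb-bt (13.2 ± 16.0 TPM). Hba-a2 exceeded Hba-a1 in 15 of 16 libraries, while the order of Hbb-bs, Hbb-b1 and Hba-a1 lay within their spread.

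The sums kept nearly the same proportions to each other in every library. The beta-t position made up 27.5% ± 1.20 of the beta sum (SD, n = 16), with a range of 24.7% to 29.7%, so the beta-s position was 2.65 ± 0.163 times as high. The alpha sum was 1.20 ± 0.0844 times the beta sum, with a range of 1.01 to 1.32. This order rests on the unit, since by deposited coverage, where the alpha entries lack their factor of 2.00, the alpha sum was 0.598 ± 0.0422 times the beta sum and lower in 16 of 16 libraries. By group the TPM ratio of alpha to beta was lowest in p16 WT CTL, at 1.14 ± 0.0921, and highest in p16 KO RUN, at 1.27 ± 0.0771, with 1.20 ± 0.0652 for p16 KO CTL and 1.18 ± 0.0643 for p16 WT RUN (SD, n = 4), and the groups overlapped. The log2 alpha and beta sums had a Pearson r of 0.977 and a Spearman rho of 0.962 over the 16 libraries, and the beta-s and beta-t sums an r of 0.982. These pairs come from the same libraries and share their scaling to a total. A read within sequence shared by Hbb-bs and Hbb-bt can come from either position. How far the assignment of such reads shaped the beta-t share was not tested.

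**Figure D2:**
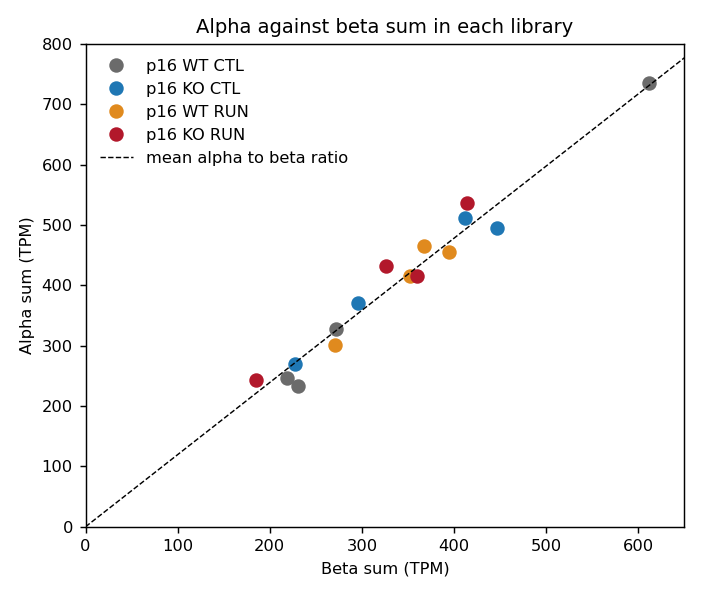
Summed alpha TPM against summed beta TPM in each library, colored by group, with a dashed line at the mean ratio of 1.20. All 16 libraries lay near the line, and p16 WT CTL replicate 1 lay far above the rest on both axes.

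Summed hemoglobin did not set the 4 groups apart. It was 1348, 465, 600.1 and 464 TPM in p16 WT CTL, 923, 666, 497 and 941 TPM in p16 KO CTL, 768, 849, 572 and 833 TPM in p16 WT RUN, and 950.2, 776, 758 and 428 TPM in p16 KO RUN. The means were 719 ± 424, 757 ± 214, 755 ± 127 and 728 ± 218 TPM in the same order (SD, n = 4). The group means lay closer together than the libraries within any group, and all groups overlapped. The widest group, p16 WT CTL, owed its spread to replicate 1, whose 1348 TPM was the highest of all 16 libraries. Such sums come from whole tissue, in which fewer cells of a type and less RNA per cell cannot be told apart.

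**Figure D3:**
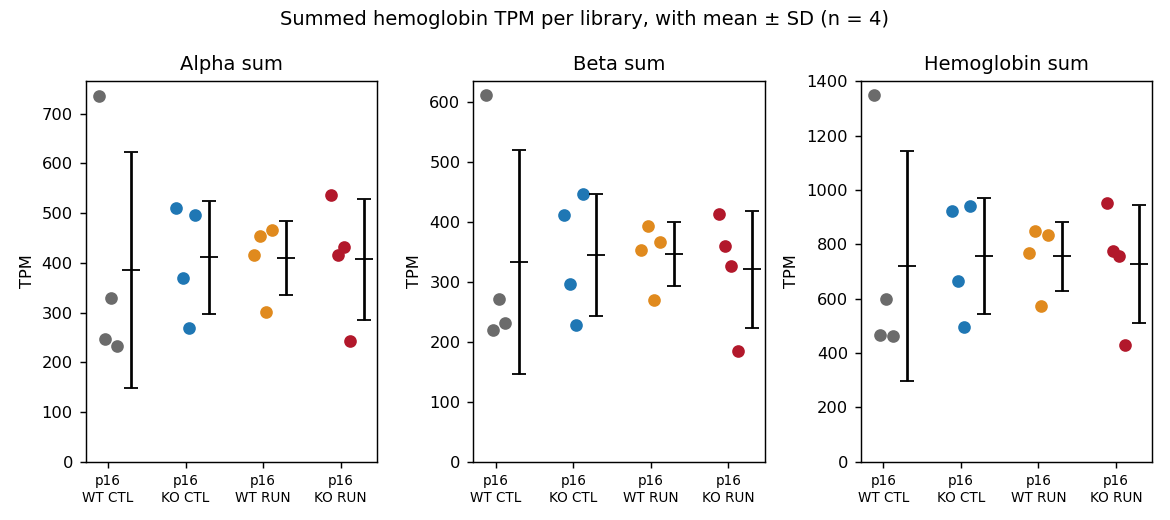
Alpha, beta and total hemoglobin TPM of each library (points) by group, with the mean and SD of 4 libraries (bars). The 4 groups overlapped in every panel, and the highest point in each was p16 WT CTL replicate 1.

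When the single entries were set against each other between groups, differences of many-fold were found that the sums did not show. On the scale of log2(scaled TPM + 0.1), Hbb-b1 differed by 6.85 ± 2.04 (SE) in Set D and 5.91 ± 2.11 in Set C. The difference was 4.71 ± 2.76 for Set B, 2.14 ± 3.42 for Set A and 0.94 ± 2.92 for Set E. The Set A value of Hbb-b1 dropped to 0.51 once p16 KO CTL replicate 7 was left out, and it was 4.15 when p16 KO RUN replicate 14 was. In Set E it ran from -0.87 (without p16 WT RUN replicate 11) to 2.95 (without p16 KO RUN replicate 14), so its sign turned, while Sets B, C and D stayed above 0 with a lowest value of 3.09. The Hbb-b1 libraries of the groups did not overlap in Set C and Set D, where all 4 p16 WT CTL libraries lay lowest. Among all 17317 tested genes the libraries did not overlap for 3.34% (2.02% higher) in Set C and 5.68% (3.27% higher) in Set D. The shares were 10.4% for Set A, 2.7% for Set B and 2.46% for Set E, where no hemoglobin entry was without overlap. The values of Hbb-b1 are among those that chose it, so nothing is read from these counts.

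Hbb-bs differed in the opposite direction, by -3.75 ± 1.5 in Set D, -3.57 ± 2.59 in Set C, -2.63 ± 1.51 in Set B, -1.12 ± 2.07 in Set A and -0.18 ± 2.95 in Set E. With 1 library left out Hbb-bs in Set E lay between -2.61 (without p16 WT RUN replicate 10) and 1.08 (without p16 WT RUN replicate 12), and in Set C it came to -1.14 without p16 WT RUN replicate 10. In Set A it lay between -2.47 (without p16 KO RUN replicate 14) and -0.22 (without p16 KO CTL replicate 6). The beta-s sum of both differed by 0.04 ± 0.44 in Set D, 0.17 ± 0.37 in Set C, 0.21 ± 0.40 in Set B, -0.17 ± 0.34 in Set A and -0.13 ± 0.30 in Set E. With all libraries the difference of the sum was thus smaller than its standard error in all 5 sets. Leaving out p16 WT CTL replicate 1 moved it to 0.55 in Set B, 0.51 in Set C and 0.38 in Set D.

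The differences of the alpha genes turned on single libraries as well. Hba-a2 differed by -1.93 ± 2.13 in Set C and by 2.11 ± 2.11 in Set E, and without p16 WT RUN replicate 10 these values were 0.16 and 0.01. Hba-a1 differed by 1.15 ± 1.65 in Set C and -0.80 ± 1.67 in Set E, which became -0.36 and 0.72 without that library. In Set A and Set B it differed by 0.77 ± 1.34 and -0.41 ± 1.32. Leaving out p16 KO CTL replicate 8 turned these to -0.12 and 0.47, and leaving out p16 KO CTL replicate 6 gave 1.82 and -1.46. In Set D it was 0.36 ± 0.67, and 0.01 without p16 KO RUN replicate 13. The alpha sum differed by 0.22 ± 0.41 in Set C and -0.04 ± 0.29 in Set E with all libraries.

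For total hemoglobin the log2 difference was -0.13 ± 0.32 with Set A, 0.24 ± 0.41 with Set B, 0.19 ± 0.39 with Set C, 0.11 ± 0.44 with Set D and -0.09 ± 0.29 with Set E. Each lay within 1 standard error of 0. Without p16 WT CTL replicate 1, Set B gave 0.59, Set C 0.55 and Set D 0.46, and without p16 KO RUN replicate 16, Set A gave 0.11 and Set E 0.16. The Hbb-bt entry differed by between -0.02 and 0.52 with standard errors of at least 1.22. Its sign turned in all 5 sets when single libraries were left out (range -0.91 to 1.41). The beta-t sum differed by between -0.21 and 0.17 with all libraries. Without p16 WT CTL replicate 1 this sum came to 0.51 in Set B, 0.49 in Set C and 0.31 in Set D. Without p16 KO RUN replicate 13 it came to -0.36 in Set A and -0.34 in Set E. Its sign turned in Sets A, D and E when single libraries were left out.

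**Figure D4:**
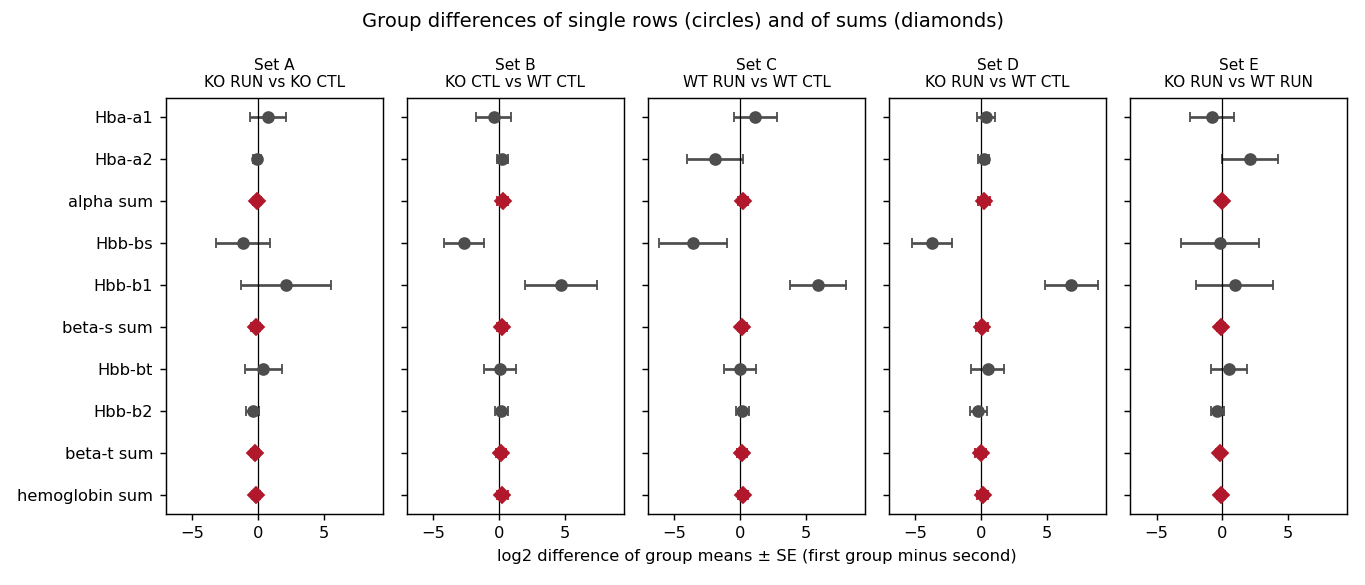
Log2 difference between group means (with SE) of single hemoglobin entries (circles) and of sums (diamonds) in Set A to Set E. Hbb-b1 reached 6.85 and Hbb-bs -3.75 in Set D, while the sums stayed between -0.21 and 0.28 in all 5 sets with no library left out.

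The promoters were looked at because the sums of both loci varied together across libraries. They are the 250 bases before the gene start in RefSeq on build GRCm38.p6, at chr11:32283422-32283671 for Hba-a1 and chr11:32296242-32296491 for Hba-a2 (plus strand), and at chr7:103827929-103828178 for Hbb-bs and chr7:103813924-103814173 for Hbb-bt (minus strand). Capitals mark a TATA box (the letters ATATAA), a box of the letters CCAAT, and a box that reads CACCC, each searched on both strands. In Hbb-bt, 2 of the boxes are reverse matches of CCAAT, 1 of them directly before a forward match.
Hba-a1 promoter: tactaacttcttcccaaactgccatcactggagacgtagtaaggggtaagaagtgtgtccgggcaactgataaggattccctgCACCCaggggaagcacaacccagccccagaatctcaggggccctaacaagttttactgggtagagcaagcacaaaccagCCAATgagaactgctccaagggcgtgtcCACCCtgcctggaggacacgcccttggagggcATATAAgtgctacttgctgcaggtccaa
Hba-a2 promoter: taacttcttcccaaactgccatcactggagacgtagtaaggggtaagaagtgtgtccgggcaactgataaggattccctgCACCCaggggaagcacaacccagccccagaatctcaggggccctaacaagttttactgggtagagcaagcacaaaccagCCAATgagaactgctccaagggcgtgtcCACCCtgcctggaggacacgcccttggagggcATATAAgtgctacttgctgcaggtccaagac
Hbb-bs promoter: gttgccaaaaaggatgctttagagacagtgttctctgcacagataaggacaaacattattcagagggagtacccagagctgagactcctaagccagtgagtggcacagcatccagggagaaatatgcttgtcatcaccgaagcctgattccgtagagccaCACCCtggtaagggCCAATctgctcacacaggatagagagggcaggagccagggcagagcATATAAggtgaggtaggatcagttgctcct
Hbb-bt promoter: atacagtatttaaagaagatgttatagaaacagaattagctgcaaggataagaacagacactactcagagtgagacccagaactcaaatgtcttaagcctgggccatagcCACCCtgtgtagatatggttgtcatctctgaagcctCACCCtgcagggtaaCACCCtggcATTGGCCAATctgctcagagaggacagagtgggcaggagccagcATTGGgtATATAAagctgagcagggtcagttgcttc

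The windows of Hba-a1 and Hba-a2 were identical over 247 bases once shifted by 3 bases. Those of Hbb-bs and Hbb-bt were 49.1% identical over the 230 bases compared at a single shift. Parts displaced by another length were not matched, so this value can understate their likeness. All 4 windows held ATATAA, found in 9.1% of 32851 promoter windows of the same length, CCAAT, found in 33.8%, and CACCC, found in 52%. All 4 also held GATAA, the core of sites bound by GATA factors, which 22.6% of all windows hold. A match of such short letters is a description of the window and not a site of binding.

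The other genes of both loci were low. The embryonic alpha-like gene Hba-x and Hbb-bh2 were listed at 0 in all 16 libraries, and the embryonic beta-like genes Hbb-bh1 and Hbb-y were listed at 0 in 15, with 0.268 and 0.264 TPM in p16 WT RUN replicate 10. The theta globin genes Hbq1a (2.91 ± 2.32 TPM) and Hbq1b (1.62 ± 1.00 TPM) were present in all 16 libraries (SD, n = 16), and the Hbq1b entry lies inside the span of the alpha entries. Of the globins of other loci, cytoglobin (Cygb) was at 119 ± 22.8 TPM, neuroglobin (Ngb), a neuronal globin, at 6.04 ± 1.81 TPM and the muscle oxygen store myoglobin (Mb) at 0.367 ± 0.274 TPM. None of Cygb, Ngb and Mb passed an unadjusted p under 0.05 in limma in any set, where between 3.87% (Set E) and 18.5% (Set A) of all genes did.

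Transcripts of the red cell lineage were then compared, since they were not used to choose the hemoglobin names. Of 20 such genes 18 were in the tables and 7 had a mean of at least 0.1 TPM. Gata1, the master regulator of the lineage, was listed at 0 in all 16 libraries. The anion exchanger Slc4a1 was at 0.0937 ± 0.0600 TPM. Both were named after their values were seen, and Alas2, described below, had a mean of 3.37 TPM. Tmcc2 alone, at 263 ± 11.9 TPM, made up most of the summed list, which ran from 281 to 288 TPM in p16 WT CTL, 282 to 305 TPM in p16 KO CTL, 260.4 to 287 TPM in p16 WT RUN and 260.4 to 281 TPM in p16 KO RUN.

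Alas2, the erythroid form of the first enzyme of heme synthesis, had the highest r with summed hemoglobin across libraries of the 7 red cell genes at 0.1 TPM or more, while the other 6 had r between -0.32 and -0.02. It read 5.18, 1.94, 3.28 and 2.24 TPM in p16 WT CTL, 3.36, 2.51, 1.24 and 4.78 TPM in p16 KO CTL, 4.03, 4.72, 3.90 and 3.19 TPM in p16 WT RUN, and 4.09, 4.23, 3.21 and 2.08 TPM in p16 KO RUN. Its highest library, p16 WT CTL replicate 1, was also the highest for hemoglobin. Over the 16 libraries the log2 levels of Alas2 and summed hemoglobin had a Pearson r of 0.786 and a Spearman rho of 0.83, given without a p as descriptions of libraries that share their scaling. Without the 2 libraries farthest from the median of hemoglobin, p16 WT CTL replicate 1 and p16 KO RUN replicate 16, r was 0.729, and for deviations from the group means it was 0.845. Between groups Alas2 passed no test, with log2 differences of 0.22, -0.07, 0.39, 0.15 and -0.24 in Set A to Set E and unadjusted p-values in limma of 0.199 or more.

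**Figure D5:**
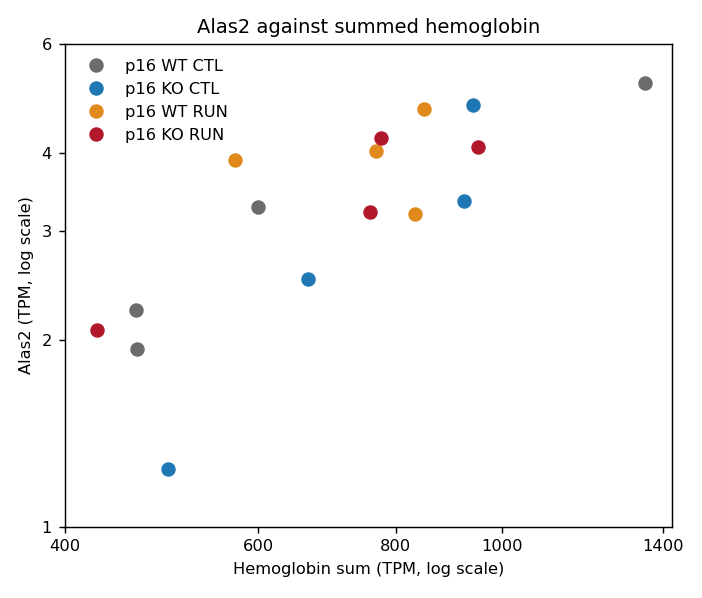
Alas2 against summed hemoglobin TPM in each library, both on log scales, colored by group. Libraries with more hemoglobin tended to have more Alas2, with a Pearson r of 0.786 over 16 libraries, and p16 WT CTL replicate 1 was highest on both axes.

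The correlations of summed lists with hemoglobin were lower than that of Alas2. The summed red cell list, which holds little beyond Tmcc2, had an r of -0.15. Summed markers of other cells gave an r of 0.07 for neutrophils, -0.21 for platelets and 0.04 for choroid plexus. These sums also rest on few genes. The platelet sum was mostly Gp1bb, at 46.0 ± 33.1 TPM (SD, n = 16) with a range of 12.6 to 87.9 TPM. The neutrophil sum was led by Csf3r (mean 3.73 TPM), and the choroid plexus sum by Ttr (29.4 TPM) and Kl (15.5 TPM). Endothelial markers had an r of 0.38 and a rho of 0.56. The neutrophil sum ran from 3.48 to 17.2 TPM over all groups and the endothelial sum from 126 to 279 TPM, and the part of such cells in the hemoglobin level was not tested.

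Among 17309 tested genes outside the globin loci Alas2 was the third most like hemoglobin by Pearson r. The 10 most alike were Ankub1 (0.84), Shisa6 (0.79), Alas2 (0.79), Rnf165 (0.78), Klf7 (0.78), Rapgef2 (0.77), Clip1 (0.76), Aox4 (0.75), Rnf150 (0.74) and Grk6 (0.73), over 16 libraries. These are the top of a long list whose median r was 0.0219, and they share the libraries' scaling.

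Genes tied to red cells or heme were also tested between groups at an unadjusted p under 0.05 in limma, the threshold of the study, and none of them passed after Benjamini-Hochberg adjustment. Of the 7 tested red cell genes, Set A had 1 higher (Klf1) and 1 lower (Tmcc2), Set B 1 lower (Icam4), Set E 1 higher (Klf1), and Sets C and D 0. Of all genes, 18.5% passed for Set A (10.7% up and 7.74% down), 6.69% for Set B (3.15% up and 3.54% down), 4.81% for Set C (2.69% up and 2.13% down), 8.63% for Set D (4.97% up and 3.66% down) and 3.87% for Set E (2.11% up and 1.76% down). For the interaction of genotype and running 5.48% passed. After adjustment 0.0173% of all genes passed in Set A and 0.00577% in Set E. The median log2 difference of the list was -0.16, -0.12, -0.04, -0.28 and -0.24 in these sets, against 0.02, -0.01, 0.00, 0.00 and 0.00 for all genes.

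Klf1, an erythroid transcription factor, was higher in p16 KO RUN (0.526 ± 0.187 TPM) than in p16 KO CTL (0.159 ± 0.119 TPM, n = 4), by 1.35 ± 0.47 in log2 (limma, unadjusted p = 0.0182, adjusted p = 0.218). In Set E it was higher by 0.96 ± 0.35 (unadjusted p = 0.0237 in limma, adjusted p = 1). Its libraries read 0.508, 0.461, 0.124 and 0.355 TPM in p16 WT CTL, 0.138, 0, 0.258 and 0.241 TPM in p16 KO CTL, 0.0950, 0.222, 0.336 and 0.243 TPM in p16 WT RUN, and 0.625, 0.389, 0.350 and 0.740 TPM in p16 KO RUN. All of these levels were below 1 TPM. The Set A call was lost without p16 KO RUN replicate 16 (1.19), and the Set E call without p16 WT RUN replicate 9 (0.73), p16 KO RUN replicate 13 (0.88) or p16 KO RUN replicate 16 (0.81). With changes of processing included, the Klf1 call held in 15 of 17 alternatives in Set A and 13 of 17 in Set E.

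Tmcc2, also expressed outside red cells, fell by 0.16 ± 0.07 in log2 in Set A (limma, unadjusted p = 0.0388), a call lost without any one of p16 KO CTL replicates 6 (-0.14) and 7 (-0.12) and p16 KO RUN replicates 13 (-0.17), 14 (-0.15) and 16 (-0.15). Icam4, a red cell adhesion protein, fell by 0.46 ± 0.19 in log2 in Set B (unadjusted p = 0.0431 in limma), a call lost without p16 WT CTL replicates 1 (-0.44), 3 (-0.33) or 4 (-0.47) or p16 KO CTL replicates 5 (-0.49), 6 (-0.33) or 8 (-0.49). With changes of processing included, the Tmcc2 call held in 10 of 18 alternatives and the Icam4 call in 9 of 18. Rhd (0.103 TPM), Ermap (0.283 TPM) and Epor (9.66 TPM) passed in no set.

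Heme synthesis showed no common direction. Of 9 enzymes, Set A had 1 higher and 1 lower, Set B 1 higher and 2 lower, Set D 1 higher and 1 lower, and Sets C and E 0. These are 2 of 9 in Set A against 18.5% of all genes, 3 of 9 in Set B against 6.69% and 2 of 9 in Set D against 8.63%, and nothing particular to the list is read from such small counts. The median log2 difference was 0.10 in Set A and within 0.03 of 0 in the other sets. Urod (uroporphyrinogen decarboxylase) fell by 0.24 ± 0.05 in Set A and Uros (uroporphyrinogen synthase) rose by 0.24 ± 0.07. In Set B, Uros fell by 0.27 ± 0.07 and Alad (aminolevulinate dehydratase) rose by 0.57 ± 0.19. These 4 calls of limma at an unadjusted p under 0.05 held when any one library was left out, with adjusted p-values of 0.135 and 0.192 in Set A and 0.625 in Set B.

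Of 8 genes that take up or break down heme and hemoglobin, Set A had 1 higher and 1 lower, where 18.5% of all genes passed, and Set D 1 higher, where 4.97% were higher, and the median log2 difference in Set A was -0.07. Cd163, the hemoglobin scavenger receptor of macrophages, rose by 0.95 ± 0.23 in Set A (1.14 ± 0.135 TPM in p16 KO RUN against 0.525 ± 0.128 TPM in p16 KO CTL, n = 4, limma unadjusted p = 0.0028, adjusted p = 0.158). The heme oxygenases Hmox1, at 11.3 ± 1.88 TPM, and Hmox2, at 150.2 ± 8.51 TPM over 16 libraries, and the serum binders Hp and Hpx, at 0.248 and 0.580 TPM, passed in no set. Among 14 genes shared by reticulocytes and other cells, Set A had 2 lower (7.74% of all genes), Set B 3 higher (3.15%), Set C 1 lower (2.13%), Set D 1 higher (4.97%) and Set E 2 higher (2.11%), with a median log2 difference of -0.05 in Set A and 0.06 in Set B. Car2 (carbonic anhydrase) fell by 0.48 ± 0.10 in Set A, from 242 ± 22.3 TPM in p16 KO CTL to 181 ± 15.7 TPM in p16 KO RUN (n = 4, limma unadjusted p = 0.000896, adjusted p = 0.125). In Set B it was higher by 0.39 ± 0.14 (limma, unadjusted p = 0.0178, adjusted p = 0.625). In Set D it differed by -0.09 ± 0.12 and did not pass.

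Markers of other blood cells, of vessels and of neighbouring tissue were also counted. Of all genes 10.7% were higher and 7.74% lower in Set A, 3.54% lower in Set B, 2.69% higher in Set C, 4.97% higher in Set D, and 2.11% higher and 1.76% lower in Set E, so that in lists of this length a single call in Set A is near the share of all genes. Of 12 endothelial genes 3 were higher in Set A and 1 in Set E, with a median log2 difference of 0.49 in Set A against 0.02 for all genes, and Vwf rose by 0.97 ± 0.22 in Set A (limma, unadjusted p = 0.00176, adjusted p = 0.145). Of 6 tested neutrophil genes 2 were higher in Set A (median log2 difference 1.32), and Sets D and E had 1 higher each, all at low levels. Lcn2, called in Set A, had a mean of 0.0677 ± 0.135 TPM in p16 KO CTL and 1.22 ± 1.46 TPM in p16 KO RUN, where 1 library at 3.41 TPM raised the mean above a median of 0.542 TPM, with means of 1.24 ± 2.29 TPM in p16 WT CTL and 1.84 ± 1.63 TPM in p16 WT RUN (n = 4). Of 7 platelet genes 0 passed in any of the 5 sets, and the smallest adjusted p in limma was 0.483. Of 4 tested lymphocyte and monocyte genes 2 were higher in Set A and 2 lower in Set B, among them Cd79a, which was listed at 0 in p16 KO CTL. Of 8 mural cell genes 1 was higher in Set A, 1 higher in Set C and 1 lower in Set E, of 9 hypoxia genes 2 were lower in Set A, of 8 meningeal genes 1 was higher in Set A, of 7 choroid plexus genes 1 was higher in Set E, and of 7 granule neuron genes 1 was higher in Set A. Some of these calls were lost when processing changed or 1 library was left out. In Set A, the endothelial Tek and Pecam1 held in 11 and 13 of 18 alternatives, and Tagln (mural) and Ndrg1 (hypoxia) in 11. Col1a1 (meningeal) and Ly6c2 (monocyte) held in 14 of 18, and Mpo (neutrophil) in 14 of 17. Ly6c2 held in 13 of 18 in Set B, and Rgs5 (mural) in 10 of 18 in Set C. In Set E, Pecam1 held in 10 of 18, Rgs5 in 9 of 18 and Folr1 (choroid plexus) in 9 of 17. The others held in all. Summed hemoglobin differed by -0.13 ± 0.32 in Set A, and the part of these cells in it was not tested.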

How the data were processed

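RNA of 16 libraries, 4 in each of 4 groups taken from the sample labels, was made into libraries by a sequencing service with an mRNA kit, strand-specific per the labels. Per the methods and the submitters' processing notes, adapters were masked with Cutadapt 1.11 after base calling with bcl2fastq 2.20, bases were trimmed with ERNE, reads were aligned to mm10 with STAR and abundances were computed with StringTie. The TPM values, as deposited, are StringTie abundances per gene, corrected for length and scaled to a common total. The FPKM values, deposited in the same tables, are proportional to TPM within a library and were used as an alternative. The coverage values were computed per gene by the authors with StringTie. They served for the relative depth, for the ratio of FPKM to coverage and for the ratio of alpha to beta by coverage. The counts behind these values were not used here, so precision follows from the spread of 4 libraries.

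TPM of entries with 1 gene name was summed. Levels are TPM as deposited. Before differences and correlations with other genes were taken, each library was scaled by its median ratio to the average library, using the 13226 genes at 1 TPM or more everywhere. After log2 transformation with a pseudocount of 0.1 TPM, the 17317 genes whose mean TPM reached 0.1 entered limma 3.58.1 (R 4.3.3) with empirical Bayes moderation and a variance trend. Each set used its own 8 libraries and the interaction used all 16, and p-values were adjusted by the Benjamini-Hochberg method. A log2 difference understates the change of low genes. The hemoglobin entries and sums were not given a test, and their correlations with other genes and lists (scipy 1.17.1) are descriptions without p-values. The script was tested on simulated data. Coding sequences came from the GENCODE transcripts of GRCm38, promoters from RefSeq on GRCm38.p6, for 4 of the 5 names. The hemoglobin names, gene lists and tests were chosen with earlier results of these data known. Named besides the hemoglobin names were other globin genes, red cell genes whose mean reached 0.1 TPM, genes of the other lists among the 3 of smallest unadjusted p under 0.05, the 10 most alike to hemoglobin, and genes overlapping a hemoglobin entry. Hmox1, Hmox2, Hp, Hpx and the red cell genes near 0 were named after their values were seen.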

Additional observations from a re-analysis of the deposited data

Results flagged for a closer look

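In 14 of 94 groups of 4 libraries that were checked, 1 library lay apart from the other 3 by Dixon's criterion. The criterion serves here to list libraries and not as a test, since 12 of the 14 are hemoglobin entries, which were chosen for moving between libraries and share reads, and their sums. Hba-a1 was highest by far in p16 WT CTL replicate 1 (22.2 TPM), p16 KO CTL replicate 6 (55.9 TPM) and p16 WT RUN replicate 10 (454 TPM). Hbb-bs was highest by far in p16 WT CTL replicate 1 (438 TPM) and p16 KO RUN replicate 14 (265 TPM), and Hbb-bt in p16 WT CTL replicate 4 (28.0 TPM), p16 KO CTL replicate 5 (48.4 TPM) and p16 WT RUN replicate 9 (39.7 TPM). In p16 WT CTL replicate 1 the sums stood apart as well, with 439 TPM at the beta-s position, 173 TPM at the beta-t position, 612 TPM for beta and 1348 TPM for hemoglobin. The embryonic genes Hbb-bh1 (0.268 TPM) and Hbb-y (0.264 TPM) were above 0 only in p16 WT RUN replicate 10, the library of lowest relative coverage (0.621), in which Hba-a1 and Hbb-b1 also held their positions.

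For Klf1 and Icam4, all 4 running libraries lay above the sedentary mean in p16 KO and below it in p16 WT. The interaction of genotype and running was 1.83 ± 0.64 in log2 for Klf1 (limma, unadjusted p = 0.0117, adjusted p = 0.797) and 0.67 ± 0.32 for Icam4 (unadjusted p = 0.0523 in limma, adjusted p = 0.797). Neither passed the adjustment.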

How the results depend on the processing

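Counts of genes with an unadjusted p under 0.05 were 3196, 1158, 833, 1495 and 671 in Set A to Set E and 949 for the interaction. Under the alternatives of filter, pseudocount, scaling, unit, variance trend, entries per name and joint fit they stayed within 1.5 times of these, except that Set B gave 2205 genes with all 16 libraries in one fit. With 1 library left out the counts ran from 2023 to 4738 (Set A), 557 to 3029 (Set B), 531 to 1018 (Set C), 1130 to 1934 (Set D), 486 to 1048 (Set E) and 619 to 2381 (interaction). Counts moved by over 1.5 times in Set A without p16 KO CTL replicate 6 (2063) or 7 (2023), in Set B without p16 WT CTL replicate 1 (607), 2 (3029), 3 (712) or 4 (731) or p16 KO CTL replicate 5 (2332), 6 (685) or 7 (557), in Set C without p16 WT RUN replicate 10 (531), in Set E without p16 WT RUN replicate 12 (1048), and for the interaction without p16 WT CTL replicate 2 (2381) or 3 (619) or p16 KO CTL replicate 5 (1975). The cause was not tested.

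Differences of hemoglobin entries and sums moved by less than the spread between libraries in all 800 alternatives, among them the sum over every globin entry of the loci and, chosen after seeing the data, over the 5 names alone. That spread is wide for single entries. For summed hemoglobin, leaving out 1 library gave -0.30 to 0.11 in Set A, 0.07 to 0.59 in Set B, 0.02 to 0.55 in Set C, -0.06 to 0.46 in Set D and -0.23 to 0.16 in Set E. Filter, joint fit and variance trend give no other value where no test is fitted. The r of Alas2 with hemoglobin was 0.784 to 0.845 under 5 alternatives and 0.758 to 0.835 on leaving out 1 library. That of the summed red cell list was -0.277 to 0.0102 on leaving out 1 library, with the sign turned without p16 KO CTL replicate 7 (0.0102). The 4 relations with other cells were added after seeing the data. Of 38 calls of named genes, 14 held in every alternative and none changed direction. No paired analysis was possible because no replicate number is shared between groups. Counting error could not be separated from other spread, since the tables hold no counts.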
